A study of Mus musculus with 12 samples.

Results

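The genes described here are 42 genes of the actin cytoskeleton and of its transcriptional regulators: actins, calponin-family and other actin-binding proteins, myosin light chains, tropomyosins, crosslinkers of focal adhesions, intermediate filament proteins, annexins, S100 proteins, galectins, beta-tubulins, caveolins, the coactivators YAP and TAZ with TEAD1 and targets, and serum response factor (SRF). They were given as a list of symbols, not selected by a cut on measured values, and were matched to their Ensembl identifiers among the 53715 genes of the count table. The list was chosen with earlier results of these data known, so shares over all genes are given for scale and not as a test. Each of the 42 passed the filter of more than 10 counts in any library and so belonged to the 17779 genes tested, Cnn1 and Ankrd1 only through the Diff. hepatocytes libraries. The study compared the transcriptome of hepatocytes made in culture with that of their progenitors and with that of adult hepatocytes, in 4 biological replicates per group from C57BL/6JOlaHsd mice. Hepatoblasts were the Dlk1+ fraction of embryonic livers at E14.5, enriched on a magnetic column from pooled livers and lysed directly. By the paper's account, a minority of the Dlk1+ cells from livers of this age carried the bile duct marker Sox9. Diff. hepatocytes came from such Dlk1+ cells, seeded on fibronectin in a differentiation medium with serum, dexamethasone and Matrigel, and were collected after 4 days of culture according to the description of the data set. Mature hepatocytes were isolated by collagenase perfusion from male mice of 8 to 12 weeks and lysed without culture. Diff. hepatocytes therefore differed from hepatoblasts in time, culture and attachment to a coated surface, which cannot be told apart. Mature hepatocytes differed from hepatoblasts in age and in the way of isolation, and from Diff. hepatocytes also in culture. Within each of these comparisons such differences cannot be told apart either. The mature group was male only, and the sex of the embryos is not given.

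Actin filaments give a cell its cortex, its stress fibres and its bile canalicular microvilli, and in hepatocytes actin and myosin line the bile canaliculi. Monomeric actin holds the SRF coactivators of the MRTF family in the cytoplasm, so that filament assembly releases them to activate SRF target genes, many of which encode actins and actin-binding proteins. YAP (Yap1) and TAZ (Wwtr1) enter the nucleus of spread or stretched cells, bind TEAD factors there, and are held back by the Hippo kinases LATS1 and LATS2.

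SRF binds the CArG box, CC and GG around a run of A or T, and TEAD factors bind CATTCC. The 250 bases upstream of the transcription start were searched for both motifs, CATTCC on either strand, in 37 RefSeq promoters of 34 of the 42 genes on GRCm38.p6. A CArG box was present in 5 of the 37 promoters (13.5%), against 1.47% of all 32851 promoters of the same length, and CATTCC in 12 of the 37 (32.4%), against 12.6% of all. The list was assembled to include SRF and YAP targets, so these shares are given for scale and not as a test. The 12 promoters belong to 11 genes, as overlapping windows of Wwtr1 hold the same site. No match of one motif overlapped a match of the other. The windows below hold the CArG boxes of these promoters, in capitals, because the 5 genes that carry them differed widely in the libraries: 2 rose in Diff. hepatocytes over hepatoblasts (Cnn2 and Myl9), 1 fell (Actg1), and Vcl and Srf were not called. Each is written 5′ to 3′ on the strand of its gene, Srf at chr17:46556190-46556269 (minus strand), Actg1 at chr11:120348551-120348610 (minus), Cnn2 at chr10:79988519-79988578 (plus), Myl9 at chr2:156775278-156775337 (plus) and Vcl at chr14:20929148-20929285 (plus). Capitals in the Vcl window also mark its CATTCC match, which reads GGAATG on this strand.
Srf: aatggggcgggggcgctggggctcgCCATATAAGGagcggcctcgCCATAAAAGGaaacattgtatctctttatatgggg
Actg1: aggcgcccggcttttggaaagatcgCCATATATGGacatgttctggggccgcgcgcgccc
Cnn2: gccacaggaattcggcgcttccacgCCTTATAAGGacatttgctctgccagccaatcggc
Myl9: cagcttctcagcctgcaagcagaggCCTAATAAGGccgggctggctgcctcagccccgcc
Vcl: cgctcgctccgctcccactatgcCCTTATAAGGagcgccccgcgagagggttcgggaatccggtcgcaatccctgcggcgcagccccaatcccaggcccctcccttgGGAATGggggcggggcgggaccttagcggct

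CATTCC matches were present upstream of Tagln2, Wwtr1, Actn4, Yap1, Tpm1, Amotl2, Vcl, Anxa1, Acta2, Ankrd1 and Flna, 11 genes. Printed are those of Ankrd1, Amotl2, Wwtr1 and Yap1, the YAP-related genes described below, and those of Acta2 and Tpm1 as an actin and a tropomyosin. Anxa1 and Flna, also called higher in Diff. hepatocytes than in hepatoblasts, are not printed. Their windows lie at chr19:36120037-36120066 and chr19:36119950-36119979 for Ankrd1 (minus strand), chr9:102717727-102717756 for Amotl2 (plus), chr3:57576016-57576071 for Wwtr1 (minus), chr19:34255502-34255531 for Acta2 (minus), chr9:67049252-67049281 for Tpm1 (minus) and chr9:8004707-8004762 for Yap1 (minus). The windows of Ankrd1, Amotl2, Acta2 and Tpm1 overlap exons that GENCODE annotates, so for these genes the RefSeq start lies downstream of a GENCODE start, and the windows of Wwtr1 and Yap1 overlap none. A match is a string of letters in a window, not an occupied site.
Ankrd1, distal: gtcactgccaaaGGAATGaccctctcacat
Ankrd1, proximal: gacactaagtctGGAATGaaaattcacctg
Amotl2: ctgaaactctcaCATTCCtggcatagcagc
Wwtr1: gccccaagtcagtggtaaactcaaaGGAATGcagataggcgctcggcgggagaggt
Acta2: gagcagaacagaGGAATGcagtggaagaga
Tpm1: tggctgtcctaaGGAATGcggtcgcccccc
Yap1: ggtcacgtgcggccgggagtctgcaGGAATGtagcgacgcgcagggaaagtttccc

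Most of the 42 genes were at their highest in Diff. hepatocytes. Against hepatoblasts, 23 were called higher, where 14.9% of all genes tested were, and 1 was called lower, where 14.0% were. The YAP target Ankrd1, the smooth-muscle-type genes Cnn1 and Acta2 and the calcium-binding S100a6 had the largest increases (log2 fold changes 7.31, 6.19, 4.50 and 5.29), while the cytoplasmic actin Actg1 fell. Ankrd1 and Cnn1 passed the count filter only through the Diff. hepatocytes libraries, so their being called higher there is not independent of that filter. In mature hepatocytes against hepatoblasts, 16 of the genes were called lower (24.7% of all genes) and 2, S100a10 and Cav2, were called higher (20.1% of all genes). Against mature hepatocytes, 29 were called higher in Diff. hepatocytes (20.2% of all genes) and 0 were called lower (15.6% of all genes) by edgeR or DESeq2, with 2 lower, Yap1 and Srf, at an unadjusted p under 0.05. Being called meant a log2 fold change beyond 1 in either direction together with an adjusted p below 0.01. Every adjusted p given here is that of the edgeR quasi-likelihood fit, adjusted by Benjamini-Hochberg over all genes tested. The comparisons share libraries, so their results are not independent of each other.

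All 4 Diff. hepatocytes libraries lay above the 8 other libraries for 25 of the 42 genes, an order found for 11.8% of all genes tested. The reverse order, with the 4 Diff. hepatocytes libraries below the 8 others, was found for 0 of the 42 and for 9.09% of all genes. As a median, the 42 genes had a log2 fold change of 1.31 between Diff. hepatocytes and hepatoblasts, -0.84 between mature hepatocytes and hepatoblasts and 2.04 between Diff. and mature hepatocytes, beside -0.01, -0.15 and 0.09 over all genes tested. Expression is given as CPM, edgeR's depth-scaled count, in which library totals are multiplied by the TMM factor, and levels of different genes are compared as TPM, which divides by exon length. TPM takes no TMM factor, so TPM levels and sums set beside each other across groups also carry that difference in scaling. The libraries held 19581551 to 25216977 counts. With library totals in place of TMM the split in the first comparison was 20 higher and 5 lower, and with totals without the 50 most abundant genes 23 higher and 4 lower. Library totals moved the median over all genes by -0.32 in this comparison, -0.85 between mature hepatocytes and hepatoblasts and 0.53 between Diff. and mature hepatocytes. In bulk samples such as these, fewer cells of a type and less RNA per cell cannot be told apart.

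**Figure D1:**
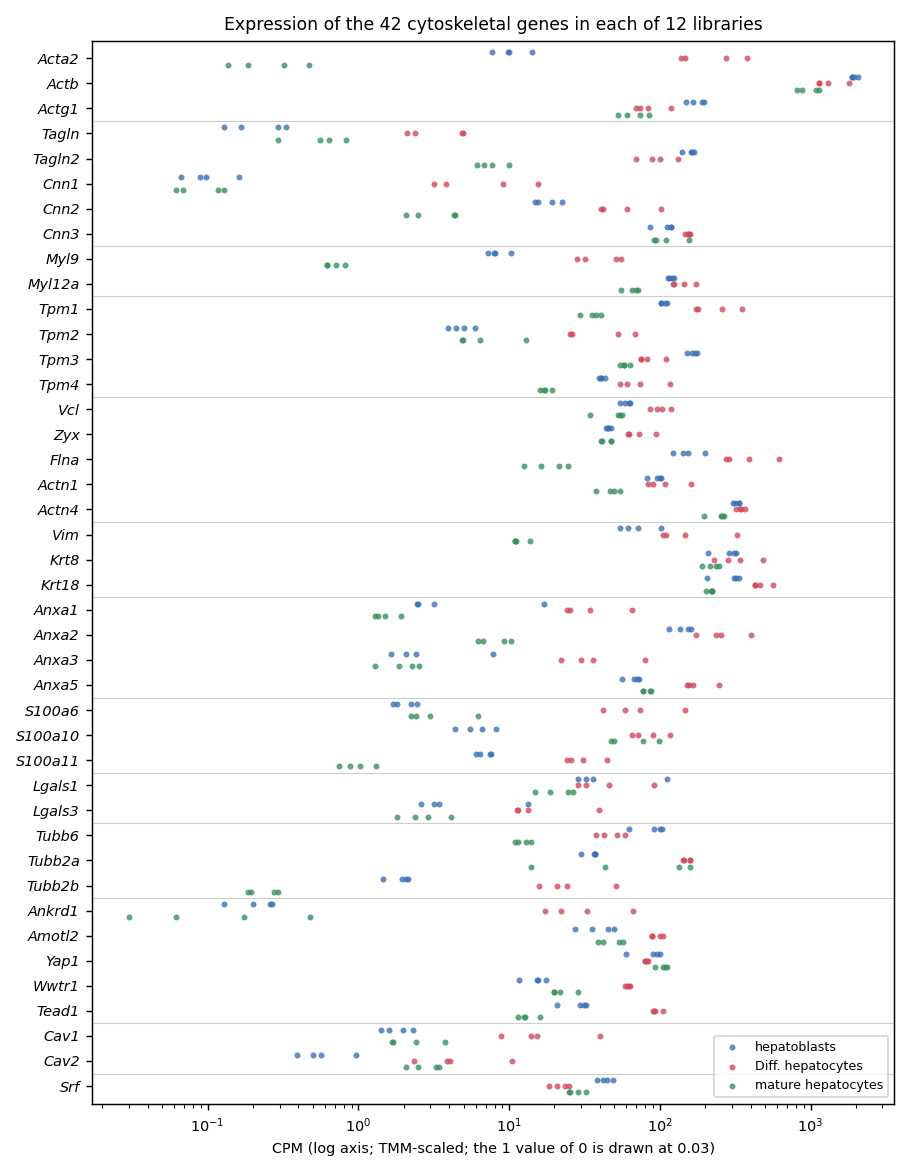
CPM of each of the 42 genes (rows, grouped by role between grey lines) on a log axis, with 1 point per library for hepatoblasts (blue), Diff. hepatocytes (red) and mature hepatocytes (green), 4 each. The red points lie to the right of all blue and green points in 25 rows, and the only value of 0, Ankrd1 in 1 mature hepatocyte library, is drawn at 0.03.

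Among the actins, Acta2, the smooth muscle alpha-actin of contractile and stellate cells, changed most. Acta2 (chromosome 19 from 34241090 to 34255590, GRCm38) measured 7.68, 10.03, 14.3 and 9.88 CPM in replicates 1 to 4 of hepatoblasts, 382, 139, 276 and 148 CPM in those of Diff. hepatocytes and 0.137, 0.321, 0.467 and 0.186 CPM in those of mature hepatocytes. The 3 groups did not overlap, and within Diff. hepatocytes replicates 1 and 3 were clearly above replicates 2 and 4. Acta2 rose in Diff. hepatocytes over hepatoblasts (log2 fold change 4.50, SE 0.33, adjusted p = 1.22e-07) and fell in mature hepatocytes (log2 fold change -5.18, SE 0.51, adjusted p = 7.77e-07), where 2 to 8 reads per library were counted.

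The cytoplasmic beta-actin gene Actb had the highest mean TPM of the 42 genes in each group. Its CPM was 2063, 1956, 1877 and 1875 in hepatoblasts, 1813, 1139, 1296 and 1141 in Diff. hepatocytes and 1085, 814, 1142 and 875 in mature hepatocytes. The hepatoblast libraries lay above the 8 others, and the Diff. and mature groups overlapped. Actb was not called, at a log2 fold change of -0.53 in Diff. and -0.99 in mature hepatocytes against hepatoblasts. The second value lay at the threshold and was called lower with library totals (-1.85), with at least 1 count in any sample (-1.03), with a replicate block (-1.003) and without hepatoblast replicate 3 or 4 or mature hepatocytes replicate 1 or 3 (-1.02, -1.02, -1.05 and -1.08). Actg1, the cytoplasmic gamma-actin gene, was the only one of the 42 called lower in Diff. hepatocytes than in hepatoblasts, with 150.2, 196, 191 and 167 CPM in the hepatoblast libraries, 119, 69.4, 83.3 and 74.4 CPM in those of Diff. hepatocytes and 84.9, 52.6, 74.00 and 60.3 CPM in mature hepatocytes. Its log2 fold change of -1.02 (SE 0.18, adjusted p = 0.000299) stood at the edge of the threshold and was not called without hepatoblast replicate 2 or 3 or Diff. hepatocytes replicate 2 or 4, at -0.97, -0.99, -0.94 and -0.96. Actg1 shares 33.5% of its 75-base sequences with other genes, so its counts are uncertain.

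Against mature hepatocytes, Acta2 was the actin called higher in Diff. hepatocytes (log2 fold change 9.68). The make-up of the actin transcripts also differed between groups. Acta2 took 0.601% ± 0.171 of the summed TPM of the 3 actins in hepatoblasts, 16.1% ± 4.01 in Diff. hepatocytes and 0.0326% ± 0.0159 in the mature cells (SD, n = 4 each), with no overlap between groups. The sum itself was 2785 ± 357 TPM in hepatoblasts, 1575 ± 470 TPM in Diff. hepatocytes and 548 ± 78.9 TPM in mature hepatocytes. These sums take no TMM factor, and the scaling changes the size of the difference. Actb averaged 1943 CPM in hepatoblasts and 979 CPM in mature hepatocytes, beside 2539 and 512 TPM.

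Of the calponin-family genes, Cnn1, a calponin of differentiated smooth muscle, and Tagln (SM22-alpha) were close to absent outside culture. Reads of Cnn1 (chromosome 9 from 22099216 to 22109630) numbered 5, 3, 3 and 2 in hepatoblasts, 359, 89, 206 and 64 in Diff. hepatocytes and 1, 2, 2 and 1 in mature hepatocytes. The summed, depth-scaled counts were 77.8 times those of hepatoblasts (95% Clopper-Pearson interval 45.2 to 146.8) and 85.1 times those of mature hepatocytes (38.9 to 232.6), intervals that cover counting error only. Cnn1 rose against hepatoblasts (log2 fold change 6.19, SE 0.57, adjusted p = 8.98e-07). Tagln rose as well, from 4, 11, 9 and 5 reads to 115, 49, 110 and 48 reads (log2 fold change 3.93, SE 0.42, adjusted p = 3.56e-06), but remained at 3.58 ± 1.56 CPM on average in Diff. hepatocytes, and in mature hepatocytes it had 12, 10, 5 and 9 reads. Against mature hepatocytes, Tagln was 2.63 higher on the log2 scale (adjusted p = 7.26e-05).

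Cnn2, the calponin of non-muscle cells, had 22.4, 15.4, 19.4 and 14.8 CPM in the hepatoblast libraries, 103, 42.2, 60.3 and 40.9 CPM in those of Diff. hepatocytes and 4.39, 2.05, 4.32 and 2.48 CPM in mature hepatocytes, in 3 ranges that did not overlap. It rose in Diff. hepatocytes (log2 fold change 1.77, SE 0.29, adjusted p = 0.00016) and fell in mature hepatocytes (log2 fold change -2.44, SE 0.33, adjusted p = 1.76e-05). Tagln2, the transgelin of non-muscle cells, was highest in hepatoblasts, with 140.4, 162, 164 and 168 CPM in the hepatoblast libraries, 133, 69.7, 100 and 88.9 CPM in those of Diff. hepatocytes and 7.75, 6.803, 9.92 and 6.15 CPM in mature hepatocytes. Tagln2 was not called between Diff. hepatocytes and hepatoblasts (log2 fold change -0.70, adjusted p = 0.00371), and was lower in mature hepatocytes than in either (-4.37 against hepatoblasts, adjusted p = 6.16e-10). Between Diff. and mature hepatocytes, Tagln2 and Cnn2 were called higher in Diff. hepatocytes, at 3.67 and 4.21. Cnn3, an acidic calponin, was called in none of the 3 comparisons, with means of 109 ± 15.8, 154 ± 5.87 and 113 ± 29.9 CPM in hepatoblasts, Diff. hepatocytes and mature hepatocytes. In mature hepatocytes Cnn3 made up 96.1% ± 1.97 of the summed calponin TPM, beside 65.8% ± 11.1 in Diff. hepatocytes and 82.6% ± 5.0 in hepatoblasts.

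The 2 myosin regulatory light chain genes did not change alike. Myl9, the light chain of smooth muscle and non-muscle myosin II, had 8.06, 7.88, 10.4 and 7.19 CPM in the hepatoblast libraries, 55.5, 31.7, 51.2 and 28.4 CPM in those of Diff. hepatocytes and 0.617, 0.706, 0.817 and 0.621 CPM in mature hepatocytes. The groups did not overlap, and Myl9 rose in Diff. hepatocytes (log2 fold change 2.32, SE 0.21, adjusted p = 6.9e-07) and fell in mature hepatocytes (log2 fold change -3.59, SE 0.28, adjusted p = 6.73e-08). Myl12a, the related non-muscle light chain, measured 113, 125, 121 and 116 CPM in the hepatoblast libraries, 174, 124, 144 and 123 CPM in those of Diff. hepatocytes and 64.9, 55.2, 69.2 and 71.9 CPM in mature hepatocytes. It was called only between Diff. and mature hepatocytes (log2 fold change 1.11, SE 0.12, adjusted p = 2.35e-06), and 14.6% of its 75-base sequences occur in other genes, most of them in Myl12b. Myl9 made up 16.9% ± 2.13 of the TPM of the pair in hepatoblasts, 45.3% ± 4.93 in the Diff. hepatocytes and 3.0% ± 0.528 in mature ones.

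Tropomyosins run along the actin filament and set which myosins and severing proteins reach it. Tpm1 measured 101, 109, 111 and 102 CPM in the hepatoblast libraries, 352, 173, 260.3 and 179 CPM in those of Diff. hepatocytes and 29.6, 35.4, 40.8 and 37.6 CPM in mature hepatocytes, without overlap. It rose in Diff. hepatocytes (log2 fold change 1.19, SE 0.19, adjusted p = 0.000145), a call that was lost without Diff. hepatocytes replicate 1 (0.95) or with library totals (0.87), and fell in mature hepatocytes (log2 fold change -1.56, SE 0.20, adjusted p = 8.98e-06). Tpm2, a beta-tropomyosin of muscle, rose more, from 5.03, 4.42, 5.96 and 3.91 CPM to 68.3, 26.2, 52.8 and 25.4 CPM (log2 fold change 3.16, SE 0.38, adjusted p = 9.87e-06), and had 6.38, 4.94, 4.84 and 13.04 CPM in mature hepatocytes, where replicate 4 was highest and the change was not called.

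Tpm3, a main cytoplasmic tropomyosin gene, showed a different order, with 151, 178, 172 and 162 CPM in the hepatoblast libraries, 110.3, 75.1, 82.00 and 75.5 CPM in those of Diff. hepatocytes and 57.9, 54.1, 63.7 and 57.6 CPM in mature hepatocytes. The hepatoblast libraries lay highest and the mature ones lowest, and the log2 fold changes against hepatoblasts were -0.95 in Diff. hepatocytes (adjusted p = 1.52e-05, just inside the fold threshold and not called, or -1.09 and called without Diff. hepatocytes replicate 1) and -1.51 in mature hepatocytes (adjusted p = 1.02e-07, called lower). Tpm4, the other mainly cytoplasmic gene, had the highest mean TPM of the 4 tropomyosins over the 12 libraries together but in none of the 3 groups. It measured 39.3, 40.7, 43.2 and 40.6 CPM in the hepatoblast libraries, 117, 60.4, 73.96 and 54.2 CPM in those of Diff. hepatocytes and 19.3, 17.3, 17.2 and 15.96 CPM in mature hepatocytes. The 3 ranges were separate, and Tpm4 fell in mature hepatocytes (-1.23, adjusted p = 6.97e-05) but stayed under the fold threshold in Diff. hepatocytes (0.90), which it passed without Diff. hepatocytes replicate 4 (1.03). Between Diff. and mature hepatocytes Tpm1, Tpm2 and Tpm4 were called higher in Diff. hepatocytes, at 2.75, 2.56 and 2.13, and Tpm3 was not called. Tpm3 supplied 42.7% ± 1.21 of the tropomyosin TPM in hepatoblasts, 14.6% ± 2.44 in the Diff. hepatocytes and 37.5% ± 2.03 in mature ones, while Tpm1 supplied 25.5% ± 0.295, 36.8% ± 1.24 and 21.6% ± 2.5. Tpm3 and Tpm4 share 19.1% and 9.11% of their 75-base sequences with other genes, mostly related copies.

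**Figure D2:**
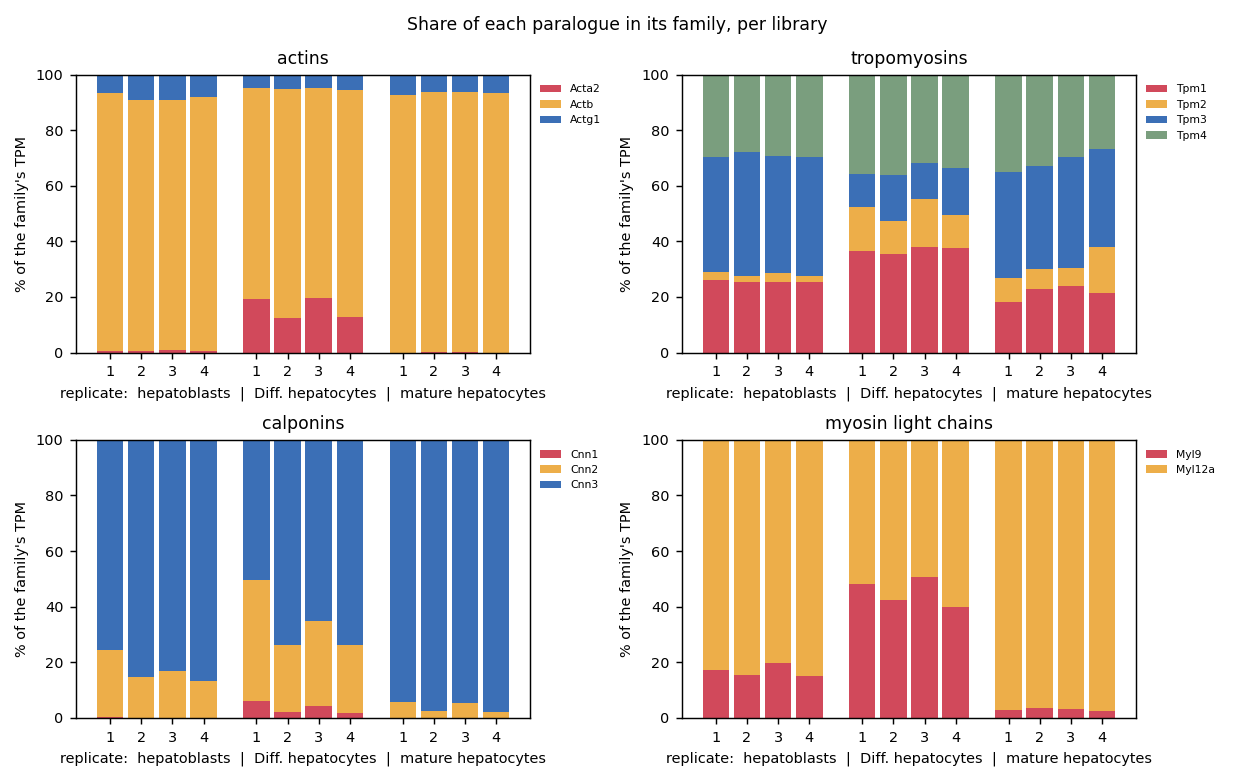
Share of each gene in the summed TPM of its family (percent, stacked bars) in each library, for actins, tropomyosins, calponins and myosin light chains, with replicates 1 to 4 of hepatoblasts, Diff. hepatocytes and mature hepatocytes from left to right. In Diff. hepatocytes Acta2 reached 12.3% to 19.6% of the actins and Myl9 40.0% to 50.7% of the light chain pair.

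Among the crosslinkers and focal adhesion genes, Flna differed most, and of the 5 genes it was the one called between Diff. hepatocytes and hepatoblasts. Flna encodes filamin A, which crosslinks actin into networks and ties it to integrins, and measured 199, 143, 154 and 121 CPM in the hepatoblast libraries, 618, 286, 389.9 and 273 CPM in those of Diff. hepatocytes and 24.6, 12.6, 21.4 and 16.3 CPM in mature hepatocytes. The groups did not overlap, with a rise in Diff. hepatocytes (log2 fold change 1.35, SE 0.27, adjusted p = 0.000695) and a fall in mature hepatocytes (log2 fold change -3.04, SE 0.29, adjusted p = 5.15e-07). The alpha-actinin gene Actn4, the highest of these genes in TPM, had 306, 315, 338 and 336 CPM, 366, 339.5, 346 and 321 CPM and 254, 195, 268 and 259 CPM in hepatoblasts, Diff. hepatocytes and mature hepatocytes and was called in no comparison.

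Vinculin (Vcl) and zyxin (Zyx), which couple focal adhesions to actin, lay above the 8 other libraries in each Diff. hepatocytes library. Mean CPM of Vcl was 59.7 ± 4.199 in hepatoblasts, 101 ± 13.9 in the Diff. hepatocytes and 49.5 ± 10.1 in mature ones, and that of Zyx 45.4 ± 1.34, 72.7 ± 15.1 and 44.1 ± 3.61 (SD, n = 4). Their log2 fold changes against hepatoblasts, 0.76 and 0.68 (adjusted p = 0.000487 and 0.000325), stayed under the fold threshold. Actn1, a second alpha-actinin, averaged 95.2 ± 9.01, 111 ± 35.01 and 47.00 ± 7.13 CPM in the 3 groups. It had a log2 fold change of 0.22 in Diff. hepatocytes and was called lower in mature hepatocytes (-1.02, adjusted p = 0.00024), not without hepatoblast replicate 2 (-0.99) or mature hepatocytes replicate 1 (-0.93). Against mature hepatocytes, Flna, Vcl and Actn1 were called higher in Diff. hepatocytes, at 4.39, 1.03 and 1.23. The call of Vcl was lost without Diff. hepatocytes replicate 1 (0.94) or mature hepatocytes replicate 2 (0.88), and that of Actn1 without Diff. hepatocytes replicate 1 (1.00 after rounding).

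The simple epithelial keratins differed less than vimentin. Krt18, which pairs with Krt8 in hepatocytes, had 205, 334, 321 and 309 CPM in the hepatoblast libraries, 563, 425, 463 and 429 CPM in those of Diff. hepatocytes and 223, 202, 219.5 and 221 CPM in mature hepatocytes. The Diff. hepatocytes libraries lay above the 8 others, but the log2 fold change against hepatoblasts was 0.69 (adjusted p = 0.00109), under the threshold, and Krt18 was called only against mature hepatocytes (log2 fold change 1.12, SE 0.15, adjusted p = 1.58e-05). Krt8 averaged 281 ± 50.4, 334 ± 110.2 and 223 ± 24.7 CPM in hepatoblasts, Diff. and mature hepatocytes and was called in no comparison, and 22.0% of its 75-base sequences also occur in other genes, mostly Krt8-ps. Vimentin (Vim), the intermediate filament of mesenchymal and spread cells, measured 102, 61.7, 71.2 and 54.2 CPM in the hepatoblast libraries, 325, 110.2, 147 and 106 CPM in those of Diff. hepatocytes and 13.8, 10.9, 11.2 and 10.9 CPM in mature hepatocytes. Each group lay apart from the others, with replicate 1 highest in each. Vim rose in Diff. hepatocytes (log2 fold change 1.25, SE 0.32, adjusted p = 0.004) and fell in mature hepatocytes (log2 fold change -2.63, SE 0.34, adjusted p = 1.2e-05). The rise was 0.75 and not called without Diff. hepatocytes replicate 1, and it was also not called without hepatoblast replicate 2, 3 or 4, at 1.18, 1.24 and 1.13, or with library totals (0.92).

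Annexins bind membranes in a calcium-dependent way and join them to the cortical actin. Anxa5 had the most TPM of the 4 over the 12 libraries, with 56.4, 67.7, 72.8 and 70.3 CPM in the hepatoblast libraries, 247, 156, 167 and 152 CPM in those of Diff. hepatocytes and 85.4, 77.6, 87.5 and 77.7 CPM in mature hepatocytes. It rose in Diff. hepatocytes (log2 fold change 1.43, SE 0.15, adjusted p = 2.28e-06) and was not called in mature hepatocytes. Anxa2, the partner of S100a10 at the plasma membrane, differed most of the 4 from mature hepatocytes, with 115, 137, 155 and 162 CPM in the hepatoblast libraries, 402, 174, 255 and 236 CPM in those of Diff. hepatocytes and 9.19, 6.67, 10.3 and 6.21 CPM in mature hepatocytes.

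The 3 groups of Anxa2 did not overlap. Its fall in mature hepatocytes was called (log2 fold change -4.13, SE 0.26, adjusted p = 9.36e-09), and its log2 fold change of 0.91 in Diff. hepatocytes, the smallest of the 4 annexins, was not (1.05 and called without Diff. hepatocytes replicate 2). Anxa1 and Anxa3 rose in Diff. hepatocytes over hepatoblasts (2.57 and 3.59, adjusted p = 0.00179 and 4.64e-05). Their Diff. hepatocytes libraries spanned 24.1 to 65.8 CPM and 22.1 to 79.6 CPM, and their mature ones 1.28 to 1.92 CPM and 1.28 to 2.51 CPM. Hepatoblast replicate 1 stood apart for both, with Anxa1 at 17.1 CPM beside 2.46 to 3.19 CPM in the other 3 and Anxa3 at 7.87 CPM beside 1.66 to 2.40 CPM. Without that library their log2 fold changes were 3.79 and 4.37. Against mature hepatocytes each of the 4 annexins was higher in Diff. hepatocytes, from 1.14 for Anxa5 to 5.04 for Anxa2, and Anxa5 was no longer called without Diff. hepatocytes replicate 1 (0.95). In mature hepatocytes Anxa5 made up 93.5% ± 0.902 of the annexin TPM.

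The 3 S100 genes, which encode small proteins that partner annexins, all rose in Diff. hepatocytes. S100a6 had 2.23, 2.45, 1.81 and 1.69 CPM in the hepatoblast libraries, 146, 41.9, 73.96 and 58.5 CPM in those of Diff. hepatocytes and 6.17, 2.25, 2.98 and 2.42 CPM in those of mature hepatocytes. S100a6 rose in Diff. hepatocytes by 5.29 on the log2 scale (SE 0.42, adjusted p = 2.23e-07). In mature hepatocytes it was not called, and Diff. hepatocytes were 4.55 above these. S100a10 followed another pattern, with 8.19, 5.49, 6.61 and 4.34 CPM in the hepatoblast libraries, 117, 71.8, 89.5 and 65.2 CPM in those of Diff. hepatocytes and 99.2, 49.4, 77.9 and 47.1 CPM in mature hepatocytes.

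S100a10 was high in both hepatocyte groups, which overlapped, and rose against hepatoblasts in Diff. hepatocytes (log2 fold change 3.80, SE 0.29, adjusted p = 1.58e-07) and in mature hepatocytes (log2 fold change 3.47, SE 0.29, adjusted p = 1.38e-07). Its partner Anxa2 fell in mature hepatocytes, so that there S100a10 was at 78.6 ± 25.6 TPM and Anxa2 at 3.04 ± 0.716 TPM on average, beside 174 ± 50.3 and 175 ± 67.04 TPM in Diff. hepatocytes and 17.9 ± 6.12 and 132 ± 8.87 TPM in hepatoblasts. S100a11 averaged 6.89 ± 0.758, 31.5 ± 9.33 and 0.988 ± 0.2397 CPM in hepatoblasts, Diff. and mature hepatocytes. It rose in Diff. hepatocytes (2.19, adjusted p = 5.35e-07) and fell in mature hepatocytes (-2.80, adjusted p = 1.65e-07), with 37.8% of its 75-base sequences shared with other genes. The summed TPM of the 3 S100 genes, which takes no TMM factor, was 70.3 ± 14.9 in hepatoblasts, 469 ± 183 in the Diff. hepatocytes and 84.8 ± 27.4 in mature ones.

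The galectins, which bind beta-galactosides on glycoproteins, showed no difference from hepatoblasts that edgeR called. DESeq2 called Lgals3 higher in Diff. hepatocytes (1.74) and Lgals1 lower in mature hepatocytes (-1.32). Lgals1 had 112, 35.8, 32.6 and 28.6 CPM in the hepatoblast libraries, 91.2, 32.4, 46.2 and 28.7 CPM in those of Diff. hepatocytes and 26.4, 18.6, 14.9 and 24.7 CPM in mature hepatocytes. Replicate 1 was the highest in all 3 groups, and the Lgals1 log2 fold change between them was -0.07 with all libraries, 0.63 without hepatoblast replicate 1 and 0.07 and 0.12 without Diff. hepatocytes replicate 2 and replicate 4. Lgals3 had 13.3, 3.17, 3.43 and 2.62 CPM in the hepatoblast libraries, 39.3, 13.4, 11.2 and 11.4 CPM in those of Diff. hepatocytes and 4.11, 2.38, 2.92 and 1.8 CPM in mature hepatocytes. Lgals3 was called higher in Diff. than in mature hepatocytes (log2 fold change 2.75, SE 0.59, adjusted p = 0.00109). Against hepatoblasts its log2 fold change was 1.75 (adjusted p = 0.0139), and without hepatoblast replicate 1 it was 2.63 and called.

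The 3 beta-tubulin genes, which encode microtubule subunits, each followed a course of their own. Tubb2b had 1.45, 2.06, 2.14 and 1.96 CPM in the hepatoblast libraries, 50.97, 20.7, 24.3 and 15.7 CPM in those of Diff. hepatocytes and 0.274, 0.193, 0.292 and 0.186 CPM in mature hepatocytes, where 3 to 5 reads were counted per library. It rose in Diff. hepatocytes (log2 fold change 3.87, SE 0.33, adjusted p = 3.94e-07) and fell in mature hepatocytes (log2 fold change -2.98, SE 0.48, adjusted p = 8.74e-05). Tubb2a, which had the most TPM of the 3 in Diff. and mature hepatocytes but less than Tubb6 in hepatoblasts, measured 29.8, 37.4, 36.6 and 36.95 CPM in the hepatoblast libraries, 144, 158, 159 and 144 CPM in those of Diff. hepatocytes and 159, 13.99, 134 and 43.2 CPM in mature hepatocytes.

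Tubb2a was even across the 4 Diff. hepatocytes libraries and above all hepatoblast libraries (log2 fold change 2.104, SE 0.51, adjusted p = 0.00309), while in mature hepatocytes replicates 1 and 3 reached the Diff. level and replicate 2 lay below all hepatoblasts. Tubb2a was not called in mature hepatocytes (1.31), but was called higher without replicate 2 (1.66). The same 2 mature libraries were the higher ones for S100a10. Tubb6 had means of 89.4 ± 18.3 CPM in hepatoblasts, 47.8 ± 9.48 CPM in the Diff. hepatocytes and 12.4 ± 1.395 CPM in mature ones, and fell in mature hepatocytes (-2.86, adjusted p = 9.22e-09) but was not called in Diff. hepatocytes (-0.90). Without Diff. hepatocytes replicate 1 or hepatoblast replicate 1 that difference was -1.02 or -1.03 and called. Tubb2a and Tubb2b share 43.2% and 30.2% of their 75-base sequences, mostly with each other, so part of the value of one can be reads of the other. Of 10 other alpha- and beta-tubulin genes, 2 rose and 2 fell in Diff. hepatocytes against hepatoblasts, among them Tubb3 (3.68) and Tuba1b (-2.31), and 1 rose and 4 fell in mature hepatocytes. Over all genes tested, 14.9% rose and 14.0% fell in the first of these comparisons, and 20.1% and 24.7% in the second.

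Ankrd1, which encodes a muscle ankyrin repeat protein and is a standard readout of YAP and TAZ, had the largest change of the 42 genes against hepatoblasts. Its reads (chromosome 19 from 36111961 to 36120099) numbered 4, 9, 8 and 6 in hepatoblasts, 1546, 402, 742 and 449 in Diff. hepatocytes and 7, 0, 3 and 1 in mature hepatocytes. The lowest Diff. hepatocytes library, at 17.3 CPM, was far above the highest of the other 8, at 0.48 CPM. The summed, depth-scaled counts were 163.8 times those of hepatoblasts (95% Clopper-Pearson interval 112.3 to 248.9, counting error only), and the fit gave 7.31 (SE 0.55, adjusted p = 1.46e-07). Of the 11 genes with a CATTCC match, Ankrd1, Amotl2, Wwtr1, Tpm1, Anxa1, Acta2 and Flna were called higher in Diff. hepatocytes than in hepatoblasts. Tagln2, Actn4, Yap1 and Vcl were not called. Of the 42 genes as a whole, 54.8% were called higher in that comparison, and of all genes tested 14.9%. Whether the motif had a part in these calls was not tested.

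Amotl2, an angiomotin that binds YAP and is itself a YAP target, had 27.5, 49.95, 44.98 and 35.5 CPM in the hepatoblast libraries, 106, 88.6, 100.3 and 89.3 CPM in those of Diff. hepatocytes and 53.2, 38.9, 42.1 and 56.9 CPM in mature hepatocytes. Amotl2 rose in Diff. hepatocytes (log2 fold change 1.28, SE 0.17, adjusted p = 2.91e-05), a call lost with library totals (0.97). Against mature hepatocytes it was called at 1.01, but no longer when Diff. hepatocytes replicate 1 or 3 or mature hepatocytes replicate 2 or 3 was left out, at 0.96, 0.99, 0.91 and 0.95.

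Of the 2 coactivators, TAZ changed and YAP did not pass the test. Yap1 measured 59.98, 90.5, 101 and 96.4 CPM in the hepatoblast libraries, 82.5, 83.4, 80.3 and 80.1 CPM in those of Diff. hepatocytes and 108, 93.4, 104 and 111 CPM in mature hepatocytes, and was called in no comparison (log2 fold changes -0.09, 0.26 and -0.35 for Diff. against hepatoblasts, mature against hepatoblasts and Diff. against mature). The last of these became 0.18 and the second -0.58 with library totals in place of TMM. Wwtr1, the TAZ gene, measured 11.6, 15.5, 17.5 and 15.2 CPM in the hepatoblast libraries, 60.5, 58.97, 63.03 and 62.02 CPM in those of Diff. hepatocytes and 19.9, 21.9, 19.8 and 28.7 CPM in mature hepatocytes. The 4 Diff. hepatocytes libraries of Wwtr1 spanned a narrow range, well above the other 8.

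Wwtr1 rose in Diff. hepatocytes (log2 fold change 2.03, SE 0.14, adjusted p = 5.32e-08) and was not called between mature hepatocytes and hepatoblasts (0.59, or -0.26 with library totals). Wwtr1 was 25.2% ± 1.59 of the summed TPM of Yap1 and Wwtr1 in hepatoblasts, 59.2% ± 1.18 in the Diff. hepatocytes and 29.4% ± 3.44 in mature ones, without overlap of Diff. hepatocytes with the others. Tead1, a DNA-binding partner of both, had 20.9, 29.8, 32.4 and 31.2 CPM in the hepatoblast libraries, 105, 89.5, 90.8 and 92.2 CPM in those of Diff. hepatocytes and 11.5, 15.98, 12.6 and 12.7 CPM in mature hepatocytes. Its 3 groups did not overlap, and Tead1 rose in Diff. hepatocytes (log2 fold change 1.73, SE 0.14, adjusted p = 2.25e-07) and fell in mature hepatocytes (log2 fold change -1.12, SE 0.14, adjusted p = 8.87e-06).

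Hippo kinases, TEAD paralogues and other YAP targets, taken from lists of textbook components, did not all move alike. Of 13 Hippo kinases and YAP partners, 3 rose and 1 fell in Diff. hepatocytes against hepatoblasts. Tead4 rose from a mean of 1.53 to 12.1 CPM (2.97, adjusted p = 1.5e-07) and the kinase gene Lats2, itself a YAP target, from 5.11 to 16.1 CPM (1.66, adjusted p = 9.01e-08), while Tead2 fell from 23.1 to 9.84 CPM (-1.23, adjusted p = 0.000499). In mature hepatocytes 3 of the 13 rose and 2 fell, and between Diff. and mature hepatocytes 2 were higher and 1 lower in Diff. hepatocytes. Over all genes tested, 14.9% rose and 14.0% fell in the first of these comparisons. The shares were 20.1% and 24.7% in the second and 20.2% and 15.6% in the third.

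Of 16 other YAP/TEAD targets, 7 rose in Diff. hepatocytes against hepatoblasts (14.9% of all genes tested) and the other 9 were not called, with a median log2 fold change of 0.80. Ccn2 (CTGF), with Ankrd1 the most used YAP target, rose from 1.48 to 51.8 CPM (5.12, adjusted p = 3.35e-07), whereas Ccn1 (CYR61), a target of the same factors, averaged 91.0 CPM in hepatoblasts, 66.6 CPM in the Diff. hepatocytes and 124.4 CPM in mature ones and was not called. Crim1 (3.28), F3 (2.84) and Ptpn14 (1.96) rose as well. Against hepatoblasts 5 of the 16 rose (20.1% of all genes) and 9 fell (24.7%) in mature hepatocytes. Against mature hepatocytes 10 were higher in Diff. hepatocytes (20.2% of all genes) and 6 not called. The median between mature hepatocytes and hepatoblasts was -1.13. Lats2 and Wwc1 are on both lists.

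The caveolins, which coat membrane invaginations and are often counted among YAP targets, both rose in Diff. hepatocytes. Cav1 had 2.29, 1.403, 1.98 and 1.59 CPM in the hepatoblast libraries, 40.1, 8.87, 15.3 and 14.00 CPM in those of Diff. hepatocytes and 3.77, 1.67, 1.69 and 2.42 CPM in mature hepatocytes. Its rise against hepatoblasts was 3.43 (SE 0.44, adjusted p = 1.71e-05), and it was not called in mature hepatocytes, over which Diff. hepatocytes were higher by 3.04. Cav2 had 0.967, 0.567, 0.389 and 0.497 CPM in the hepatoblast libraries, 10.5, 2.33, 4.04 and 3.895 CPM in those of Diff. hepatocytes and 2.47, 2.05, 3.44 and 3.29 CPM in mature hepatocytes, and rose in both hepatocyte groups (3.09 and 2.21, adjusted p = 5.75e-05 and 0.000626). Replicate 1 of the Diff. hepatocytes was 3.15 times the mean of the other 3 for Cav1 and 3.06 times for Cav2.

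Srf itself was called in no comparison. It measured 42.1, 48.5, 44.9 and 38.4 CPM in the hepatoblast libraries, 25.1, 20.8, 23.5 and 18.4 CPM in those of Diff. hepatocytes and 25.03, 25.5, 32.5 and 28.4 CPM in mature hepatocytes, with the hepatoblast libraries above the 8 others. The log2 fold change against hepatoblasts was -0.99 in Diff. hepatocytes (SE 0.12, adjusted p = 9.68e-06), which missed the fold threshold and passed it without Diff. hepatocytes replicate 1 (-1.05), Diff. hepatocytes replicate 3 (-1.02) or hepatoblast replicate 4 (-1.05). The miss also depended on scaling: library totals shifted all genes by a median of -0.32 in this comparison, and totals without the 50 most abundant genes by -0.11. With these scalings 5 and 4 of the 42 genes were called lower. Tpm3 and Tubb6, at -0.95 and -0.90 with TMM, lay close to the threshold too. In mature hepatocytes against hepatoblasts Srf was at -0.64. The 6 SRF cofactor genes were not called in Diff. hepatocytes against hepatoblasts. Of the actin-regulated coactivators, Mrtfb was at 0.96 (adjusted p = 4.9e-05) and Mrtfa at -0.03, and the smooth muscle coactivator Myocd was at 2.03 (adjusted p = 0.0114), from a mean of 0.209 CPM to 0.868 CPM.

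Other SRF targets split by kind. Of the 17 tested of 18, 7 rose and 5 fell in Diff. hepatocytes against hepatoblasts (14.9% and 14.0% of all genes tested). The smooth and skeletal muscle genes Lmod1 (leiomodin, from 0.297 to 14.4 CPM, 5.58), Myh11 (smooth muscle myosin heavy chain, from 2.18 to 66.5 CPM, 4.93) and Acta1 (skeletal alpha-actin, from 0.243 to 5.23 CPM, 4.39) rose, with adjusted p between 1.3e-07 and 1.03e-05. The immediate-early genes Fosb (from 221.5 to 0.642 CPM, -8.42), Fos (from 384.1 to 4.55 CPM, -6.39), Egr2 (-5.13), Egr1 (-3.25) and Junb (-2.98) fell. Between mature hepatocytes and hepatoblasts 11 of the 17 fell (24.7% of all genes) and 6 were not called. Fos and Fosb averaged 181.2 and 71.9 CPM in mature hepatocytes. Against mature hepatocytes the 5 immediate-early genes were lower in Diff. hepatocytes (15.6% of all genes) while 10 of the list were higher (20.2%).

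Of 19 genes of actin turnover and of the ezrin family, 1 rose (Tmsb10, thymosin beta 10, 1.63) and 3 fell (Gsn, Diaph3 and Pfn2, at -3.59, -2.88 and -1.14) in Diff. hepatocytes against hepatoblasts. Over all genes tested, 14.9% rose and 14.0% fell in this comparison. In mature hepatocytes 8 of the 19 fell (24.7% of all genes) and 11 were not called. The severing protein gelsolin (Gsn) averaged 457.1 CPM in hepatoblasts, 37.9 CPM in the Diff. hepatocytes and 2.67 CPM in mature ones. Ezrin (Ezr), which ties actin to apical membranes, averaged 108.9, 87.9 and 5.87 CPM and was lower in mature hepatocytes than in hepatoblasts (-4.21) and higher in Diff. than in mature hepatocytes (3.91). Against mature hepatocytes 7 of the 19 were higher in Diff. hepatocytes (20.2% of all genes).

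**Figure D3:**
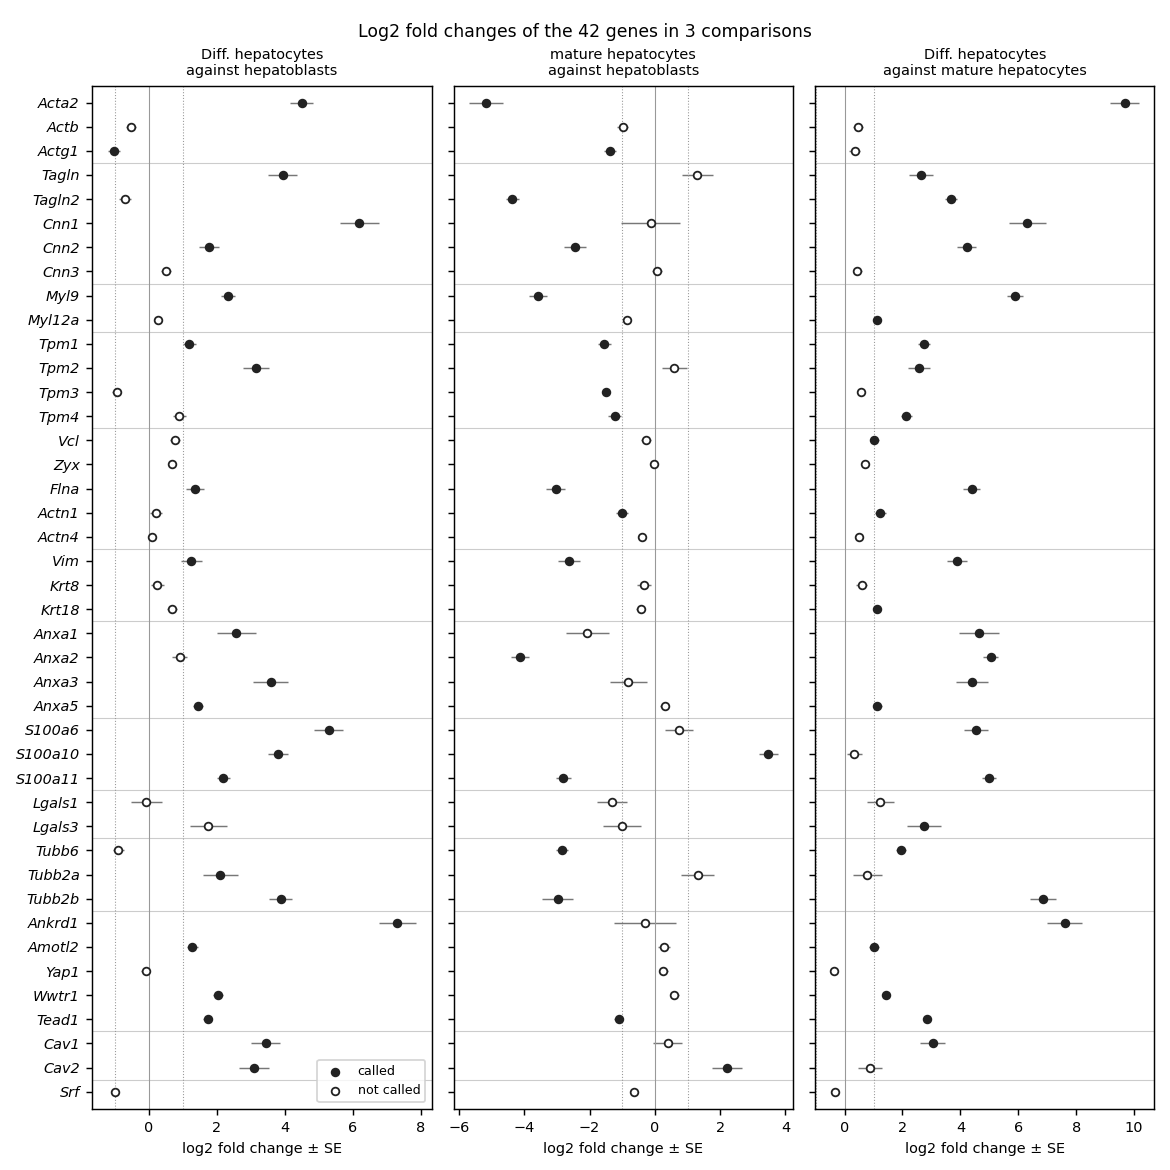
Log2 fold change ± SE of the 42 genes (rows, in the order of the plot of CPM) in 3 panels, one per comparison (Diff. hepatocytes over hepatoblasts, mature hepatocytes over hepatoblasts, Diff. over mature hepatocytes). Filled points were called and open points were not, dotted lines mark a log2 fold change of -1 and 1, and the first panel holds 23 filled points to the right of 0 and 1 to the left.

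The Diff. hepatocytes libraries did not show these genes equally. Replicate 1 was the highest of the 4 for 38 of the 42 genes, against 32.1% of all genes, and its ratio to the mean of the other 3 had a median of 1.63 over the 42 genes and 0.99 over all genes. The ratio was over 1.5 for 27 of the 42, beside 15.0% of all genes, with Lgals3 (3.27), Cav1 (3.15), Cav2 (3.06), Cnn1 (2.88), Ankrd1 (2.77) and Vim (2.69) among the largest and Wwtr1 (0.99), Tubb2a (0.94) and Cnn3 (0.93) below 1. Without this library 21 genes were called higher and 4 lower (Actg1, Tpm3, Tubb6 and Srf) against hepatoblasts, and 25 were higher than in mature hepatocytes. Without both this library and hepatoblast replicate 1, a setting chosen after the data had been seen, the counts against hepatoblasts were again 21 higher and 4 lower. Hepatoblast replicate 1 was over 1.5 times the mean of its group's other libraries for 7 of the 42, beside 15.7% of all genes. The 7 were Anxa1, Anxa3, Lgals1, Lgals3, Cnn1, Cav2 and Vim. The median ratio of this library was 0.94 over the 42 genes and 0.95 over all genes.

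Markers of other liver cells were present in the libraries, and some of them differed between groups. For scale, 14.9% of all genes tested were called higher and 14.0% lower in Diff. hepatocytes than in hepatoblasts, and 20.1% and 24.7% in mature hepatocytes than in hepatoblasts. The summed level of 13 mesenchymal markers was 1284 to 2322 CPM in the hepatoblast libraries, 1208 to 2663 CPM in those of Diff. hepatocytes and 72.2 to 106.5 CPM in mature hepatocytes, and Diff. hepatocytes replicate 1 was the highest. Of the 13, 2 rose and 3 fell in Diff. hepatocytes against hepatoblasts: Col1a1 rose from 299.9 to 694.5 CPM (1.21, adjusted p = 0.00568) and Des from 6.12 to 15.6 CPM (1.35, adjusted p = 0.00275), Reln (864.2 to 93.0 CPM), Ngfr and Cygb fell, and Pdgfrb and Pdgfra were not called (14.6 and 15.1 CPM beside 19.9 and 18.8 CPM). Ngfr was at 0 in Diff. hepatocytes replicate 3 and at no more than 0.172 CPM in the other 3. In mature hepatocytes 10 of the 13 fell and 1, Lrat, rose.

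The 6 bile duct markers summed to 26.7 to 35.7 CPM in the hepatoblast libraries, 92.7 to 232.5 CPM in those of Diff. hepatocytes and 37.3 to 65.9 CPM in mature hepatocytes, with 3 of 6 higher in Diff. hepatocytes than in hepatoblasts (Krt19 4.75, Krt7 4.74 and Epcam 3.05) and Sox9 at 4.76 and 4.73 CPM. Of 6 mesothelial markers, which summed to 14.2 to 35.2 CPM in Diff. hepatocytes, 17.0 to 58.6 CPM in hepatoblasts and 6.995 to 10.3 CPM in mature hepatocytes, 2 rose and 1 fell, with Msln rising from 0.355 to 7.38 CPM (4.35) and Wt1, Gpm6a and Upk1b each at 0 in 2 mature hepatocyte libraries. The 8 macrophage markers summed to 71.2 to 292.9 CPM in the hepatoblast libraries, 26.2 to 178.0 CPM in those of Diff. hepatocytes and 108.2 to 206.5 CPM in mature hepatocytes, highest in replicate 1 of the first 2 groups, and of the 8 endothelial markers 5 fell in Diff. hepatocytes and 3 were not called, at sums of 51.5 to 101.0 CPM beside 101.8 to 196.9 CPM in hepatoblasts and 136.2 to 251.8 CPM in mature hepatocytes. The 7 tested erythroid markers, at 285.3 to 2333 CPM in hepatoblasts with replicate 1 highest, all fell to 5.91 to 23.4 CPM in Diff. hepatocytes. The part of these cell types in the values of the 42 genes was not tested. Checked against the group labels, hepatocyte markers were higher than in hepatoblasts for 5 of 8 in Diff. and 8 of 8 in mature hepatocytes, and 5 hepatoblast markers were lower for 4 in Diff. and 5 in mature hepatocytes (sum of 65.9 to 109.1 CPM in mature hepatocytes beside 41800 to 70020 CPM in hepatoblasts).

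**Figure D4:**
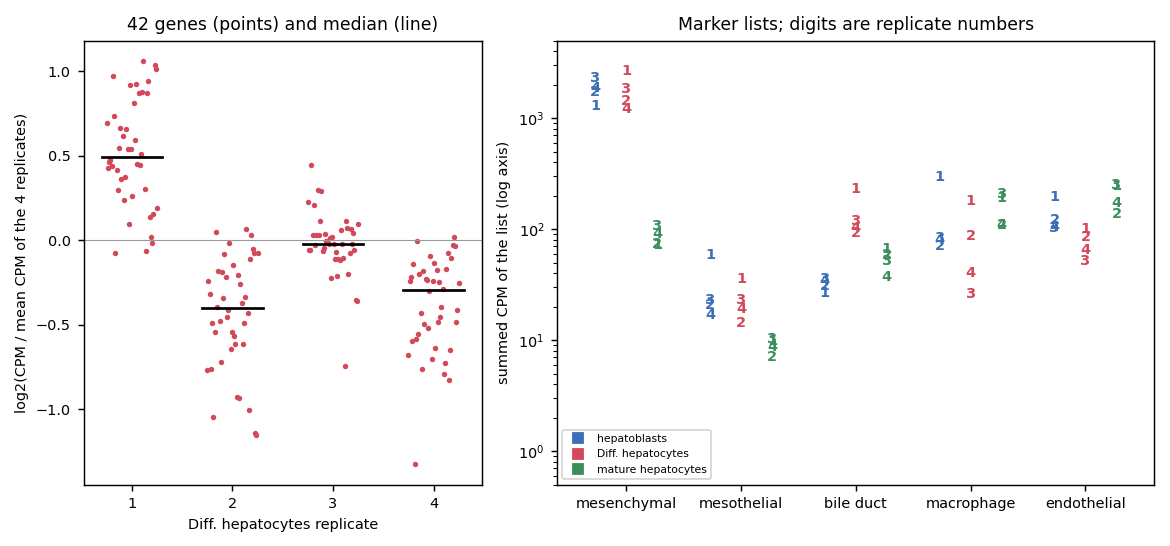
Left, log2 of the CPM of each of the 42 genes in a Diff. hepatocytes library over the mean of the 4 libraries (points, line at the median), highest in replicate 1. Right, summed CPM of 5 marker lists per library on a log axis, where each digit is a replicate number and colours are the groups, and in Diff. hepatocytes replicate 1 has the highest sum of each list (2663 CPM for the mesenchymal and 232.5 CPM for the bile duct list).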

How the data were processed

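RNA was sequenced as poly(A)-selected, single-end 75-base libraries from 4 hepatoblast, 4 Diff. hepatocytes and 4 mature hepatocyte samples labelled as biological replicates. Where the labels do not say that replicates came from separate isolations, p-values measure only the spread between these samples. The deposited values were whole-number counts per Ensembl gene on GRCm38, made by the authors, whose submitters' notes name FastQC 0.11.2, STAR 2.5.2b, Picard 2.10.2 and DESeq2 1.22.2. The strand setting of the counting is not given in the sources used here, so overlapping and antisense genes can share reads. Library totals were 19581551 to 25216977 counts, so a gene at a few counts per library is known only within wide counting error.

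The 17779 genes that exceeded 10 counts in some library were fitted with edgeR 4.0.16 (quasi-likelihood test, TMM, all 12 libraries in one fit by group, R 4.3.3) and adjusted by Benjamini-Hochberg over all of them. TPM used the union exon length of GENCODE genes on GRCm38, found for 53620 of 53715 identifiers. Exon sequences of 75 bases that occur in more than 1 gene were counted to mark uncertain genes. Promoters came from RefSeq on GRCm38.p6 and were found for 34 of the 42 genes. Alternatives were DESeq2 1.42.0 with its size factors, library totals, totals without the 50 most abundant genes, 2 other filters, 2 other call rules, a replicate block, separate fits and each library left out. Leaving out 2 libraries together was chosen after seeing the data. In each role the gene of highest mean TPM and the called gene of largest fold change were given in all libraries. The members and lists were chosen with earlier results of these data known. A further gene list is not reported here.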

Additional observations from a re-analysis of the deposited data

Results flagged for a closer look

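In 126 sets of 4 libraries (42 genes in 3 groups), a gap test of the highest or lowest library against the other 3 set apart 11 values, beside about 6.3 that chance would give at 1 in 20 sets. Hepatoblast replicate 1 held 5 of them. It was the highest for Anxa1 (17.1 CPM), Anxa3 (7.87 CPM), Lgals1 (112.1 CPM) and Lgals3 (13.3 CPM) and the lowest for Tubb2a (29.8 CPM). The erythroid, macrophage, endothelial and mesothelial marker sums of hepatoblasts were also highest in that library, and their part in these values was not tested.

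Diff. hepatocytes replicate 1 was set apart as the highest for Anxa5 (246.7 CPM), Lgals3 (39.3 CPM) and Tead1 (105.2 CPM). Mature hepatocytes replicate 2 was the lowest for Vcl (34.5 CPM) and Krt18 (202.2 CPM), and mature hepatocytes replicate 1 was the highest for Vim (13.8 CPM).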

How the results depend on the processing

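Of the 3 comparisons, the count of genes higher in Diff. hepatocytes than in hepatoblasts ranged from 16 (glmTreat) to 30 (adjusted p under 0.05 with no fold threshold), and from 21 to 24 with 1 library left out. That of genes higher in Diff. than in mature hepatocytes ranged from 23 to 37, and from 25 to 30 with 1 library left out. The count of genes lower in Diff. hepatocytes than in hepatoblasts, 1 in the fit reported, depended most on the settings: 5 with library totals, 4 with totals without the 50 most abundant genes, 2 with at least 1 count in any sample, 6 at an adjusted p under 0.05, 0 with glmTreat, 0 to 4 with 1 library left out and 4 without both hepatoblast replicate 1 and Diff. hepatocytes replicate 1. Library totals gave 1 higher and 25 lower in mature hepatocytes than in hepatoblasts, totals without the 50 most abundant genes gave 24 lower, and an adjusted p under 0.05 gave 5 higher. With 1 library left out, 2 to 3 were higher and 15 to 18 lower there. An adjusted p under 0.05 also gave 2 lower in Diff. than in mature hepatocytes. The cause of these changes was not tested beyond the settings themselves.

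Over 126 log2 fold changes under 23 settings, 2704 of 2896 values kept their call, 48 lost it, 105 gained it and 39 changed sign. With library totals the sign changed for Myl12a (-0.067), Actn1 (-0.10), Actn4 (-0.24) and Krt8 (-0.057) in Diff. hepatocytes against hepatoblasts, for Cnn3 (-0.79), Tpm2 (-0.28), Anxa5 (-0.55), S100a6 (-0.12), Amotl2 (-0.58), Yap1 (-0.58), Wwtr1 (-0.26) and Cav1 (-0.48) in mature hepatocytes against hepatoblasts, and for Yap1 (0.18) and Srf (0.18) in Diff. against mature hepatocytes. With totals without the 50 most abundant genes it changed for Actn4 (-0.024), for Cnn3 (-0.62), Tpm2 (-0.093), Anxa5 (-0.37), Amotl2 (-0.40), Yap1 (-0.41), Wwtr1 (-0.08) and Cav1 (-0.29), and for Yap1 (0.21) and Srf (0.21), in the same order of comparisons. With 1 library left out, Actn1 ranged from -0.018 to 0.32, Krt8 from 0.018 to 0.38 and Lgals1 from -0.55 to 0.63 in Diff. hepatocytes against hepatoblasts. In mature hepatocytes against hepatoblasts, Cnn3 ranged from -0.15 to 0.14, and Cnn1 (-0.30 to 0.15) and Ankrd1 (-1.35 to 0.096) had too few counts for a fold. Without both hepatoblast replicate 1 and Diff. hepatocytes replicate 1, Actn1, Krt8 and Lgals1 were at -0.075, -0.095 and 0.16, and Cnn1 and Cnn3 at 0.15 and -0.05.

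With a replicate block the counts were 24 higher and 1 lower, 2 higher and 19 lower, and 30 higher, and Lgals1 turned to 0.011 in Diff. hepatocytes against hepatoblasts. Libraries of the same number in hepatoblasts and Diff. hepatocytes had correlated deviations of 0.32, -0.06, 0.25 and 0.18. As 1 of these 4 pairs was under 0.1, and hepatoblast replicates 2 and 4 each correlated best with Diff. hepatocytes replicate 3 (0.14 and 0.24), the numbers were not taken to pair the samples. Genes at a few counts per library, such as Cnn1 and Ankrd1 outside Diff. hepatocytes, carry the widest counting error.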
